A study of Mus musculus with 17 samples.

Results

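The cells described here were 422 cells of mouse skin chosen as mature dendritic cells by transcripts of Ccr7 and Fscn1 together with MHC class II. They were taken from 8 skin libraries by a rule on raw unique molecular identifiers (UMIs). A cell had at least 200 detected genes and at most 20% of its UMIs from mitochondrial genes. It also held at least 1 UMI of Ccr7, at least 1 of Fscn1 and at least 5 of H2-Ab1, no UMI of Cd3d, Cd3e or Cd3g, and at most 1 UMI of Xcr1 and Clec9a together. The rule kept 422 of 30085 skin cells that passed the gene and mitochondrial limits, out of 31972 skin barcodes. The levels of Ccr7, Fscn1 and H2-Ab1 in these cells are therefore a description and not a finding.

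Dendritic cells take up antigen in the skin and, on maturing, exchange antigen capture for antigen presentation. They raise the chemokine receptor CCR7, which directs them through lymphatic vessels toward the draining lymph node, and the actin-bundling protein fascin, encoded by Fscn1, which shapes their long cell processes. They also display co-stimulatory ligands for T cells and secrete chemokines and cytokines. NF-κB factors drive much of this programme in dendritic cells in general.

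All skin cells came from mice that entered treatment at 8 weeks of age, with harvest 3 weeks after the first injection by the study's account, and in which Cre recombinase under the PDGFRβ promoter had recombined the Z/EG reporter, and cells carrying the reporter's GFP were sorted from Liberase-digested skin. Every group, the controls included, carried both alleles. By the labels SARAWT mice carried no further transgene, whereas SARATg mice also carried a human ZFYVE9 (SARA) cDNA behind a floxed stop cassette in Rosa26. Mice received either PBS or bleomycin at 20 mg/kg under the skin. There were 3 SARAWT PBS, 3 SARAWT bleomycin, 1 SARATg PBS and 1 SARATg bleomycin libraries. The PDGFRβ promoter is also active in some leukocytes during development, so these were the dendritic cells that the reporter marked, not all dendritic cells of the skin. The labels do not say whether libraries of a group came from separate animals or pools, and p-values measure the spread between these libraries, which may be technical.

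Totals per skin library ran from 3355217 to 69765525 UMIs. The member counts were 24, 5 and 104 in SARAWT PBS 1, 2 and 3, and 27, 29 and 68 in SARAWT bleomycin 1, 2 and 3. SARATg PBS gave 45 members and SARATg bleomycin gave 120. The median member held 18055.5 UMIs (range 1255 to 92994) and 3309.5 genes. SARAWT PBS 2, with 5 members, stayed out of the fits and ratios given here, which left 7 libraries. Barcodes shared with another skin library marked 25 members, among them 4 of the 5 in SARAWT PBS 2 and 11 of the 29 in SARAWT bleomycin 2. Of all barcodes, 55.5% were shared in SARAWT PBS 2 and 22.1% in SARAWT bleomycin 2. The share was 17.6% in SARAWT bleomycin 1, 7.38% in SARAWT PBS 1 and 0.594 to 0.824% in the remaining libraries. Predicted doublets were the cells with the highest doublet scores in each library. Their number was fixed in advance at 0.8% of kept cells for every 1000 kept cells, so it follows library size. They numbered 32 of 422 members, where 1107 of 30085 kept cells were set by this rule. They made up 15.6% of members in SARATg PBS and 10.8% in SARATg bleomycin. Their share was 5.77% in SARAWT PBS 3, 8.82% in SARAWT bleomycin 3 and 0% in the other libraries.

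The transgene readout was high, against the label, in 2 libraries labelled SARAWT, and it was lower but not absent in other SARAWT libraries. Mouse Zfyve9 in the members, in UMIs of the gene per 1000000 UMIs of the members of a library (CPM), was 16.7, 0 and 555 in the libraries labelled SARAWT PBS 1, 2 and 3. It was 7.49, 6.72 and 5.67 CPM in SARAWT bleomycin, 279.8 CPM in SARATg PBS and 227 CPM in SARATg bleomycin. A human ZFYVE9 entry was present in the gene list of 4 libraries. That entry stood at 664 CPM (240 UMIs) in the members labelled SARAWT PBS 1 and at 83.9 CPM (5 UMIs) in SARAWT PBS 2. It stood at 54.0 and 105 CPM (29 and 63 UMIs) in SARAWT bleomycin 1 and 2. All 4 libraries with the entry are labelled SARAWT, so the lower values were not accounted for by the labels either. Their source was not tested, nor whether the entry takes reads that otherwise count as mouse Zfyve9. Both SARAWT PBS libraries with enough members for a fit thus carried the high signal, so in the gene-level fit among SARAWT libraries bleomycin and this signal cannot be told apart. The comparison of SARATg with SARAWT includes both of these libraries too.

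The members carried transcripts of the dendritic lineage beyond the genes of the rule. Flt3, the receptor for the growth factor of dendritic cells, was seen with at least 1 UMI in 72.4% of members as a mean over libraries, against 0.17% of skin T cells, which should lack it. Zbtb46, a transcription factor of the conventional dendritic lineage, was seen in 63.1% of members against 3.08% of T cells. The T cell receptor gene Trac was seen in 0.24% of members, a low share that the limit on Cd3 genes favours. The keratinocyte gene Krt14 was seen in 2.87% of members and 1.66% of T cells. Members were deeper than T cells, at medians of 18055.5 and 6420 UMIs, and after thinning every cell to 1000 UMIs, which kept all 422 members and 2095 of 2101 T cells, the shares in members were 16.7% for Flt3 and 8.52% for Zbtb46. Of the genes of maturation, Cd40 was seen in 68.5% of members, 16.2% after thinning, against 0.57% of T cells, and in 3.45% and 1.84% of Cd209a Mgl2 and Xcr1 Clec9a cells after thinning. These are the 2 other classes described further on. Cd83 was seen in 49.9% of thinned members against 32.2% and 27.9% of those classes. Cd86 did not set the members apart, since it was seen in 15.7% of thinned members and in 15.5% and 16.0% of the other classes. Itgax (CD11c), a further dendritic gene set for this check, did not do so either. It was seen in 28.7% of members against 39.3% of Cd209a Mgl2 and 31.6% of Xcr1 Clec9a cells. After thinning the shares were 5.99%, 7.18% and 1.49%. Stromal transcripts were not absent, since Col1a1, a collagen gene of fibroblasts, was seen in 32.4% of members (range over libraries 6.90 to 84.4%) and in 16.5% of T cells. The name held less well for 146 members with low Ccr7, described further on, in which Ccl22 was low and transcripts of uptake receptors and stroma were higher. The part of stromal transcripts in the results was not tested except where values without such cells are given.

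Many members lay near the limits of the rule. Exactly 1 Ccr7 UMI was found in 46 members, exactly 1 Fscn1 UMI in 96, and 5 to 9 H2-Ab1 UMIs in 42. Just outside, 448 cells failed only for lack of Ccr7, 2735 only for lack of Fscn1 and 145 only on H2-Ab1, of which 95 held 1 to 4 UMIs. The limits on Cd3 genes and on Xcr1 with Clec9a removed 11 cells and 1 cell. Requiring 2 UMIs of both Ccr7 and Fscn1 left 300 members.

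Members were set beside 2 other classes in the same libraries, 3231 Cd209a Mgl2 cells and 524 Xcr1 Clec9a cells, gated on genes of type 2 and type 1 conventional dendritic cells (cDC2 and cDC1). Both gates also required no UMI of Ccr7 and none of Fscn1, whereas members held at least 1 of each. Ratios of genes that accompany Ccr7 and Fscn1 thus partly follow from the gates, and how far was not tested. The Cd209a Mgl2 class was not purely dendritic by its transcripts. The macrophage gene C1qa was seen in 23.7% of its cells (range over libraries 11.9 to 53.7%), against 9.40% of members and 5.20% of Xcr1 Clec9a cells. Flt3 was seen in 29.6% and Zbtb46 in 23.0% of Cd209a Mgl2 cells, and in 85.3% and 53.8% of Xcr1 Clec9a cells. The part of macrophage transcripts in the ratios to Cd209a Mgl2 cells was not tested. Counts were summed per library and class. The ratio for a gene was taken as a log2 difference after adding 5 CPM to both classes, which understates the difference for genes near 0. A gene counted as higher or lower where the difference was at least 2-fold in one direction in every library with at least 10 cells of both classes. The members were chosen on expression, so these ratios are descriptions and carry no p-value. By this rule 107 of 7685 genes (1.39%) were higher and 90 (1.17%) were lower in members than in Cd209a Mgl2 cells. Against Xcr1 Clec9a cells 273 of 7573 (3.6%) were higher and 136 (1.8%) lower. In all, 68 of 7301 genes (0.931%) were higher than in both classes and 10 (0.137%) lower than in both. The median difference over all genes was -0.11 against Cd209a Mgl2 cells and 0.05 against Xcr1 Clec9a cells. With every cell thinned to 1000 UMIs the first median moved to -0.45, and 66 genes were higher than in Cd209a Mgl2 cells, 48 of them among the 107. The library of SARATg PBS limited that count most, since without it 178 genes were higher than in Cd209a Mgl2 cells.

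Among all called genes Ccl22 and then Ccl5 had the highest mean difference from both classes. Ccl22, whose product attracts CCR4-bearing T cells, stood at 1377, 6891 and 676 CPM in the members of SARAWT PBS 1, 2 and 3. It stood at 1577, 829 and 663 CPM in SARAWT bleomycin, at 422 CPM in SARATg PBS and at 946 CPM in SARATg bleomycin. The values did not overlap with those of Cd209a Mgl2 cells (1.96 to 9.19 CPM) or Xcr1 Clec9a cells (0.744 to 14.6 CPM), and the log2 differences were 6.45 ± 0.74 and 6.59 ± 1.05 (SD, n = 7 libraries). Ccl22 was seen in 49.8% of members (range over libraries 22.2 to 70.2%), 29.3% after thinning, against 2.51% of Cd209a Mgl2 cells, 3.50% of Xcr1 Clec9a cells and 0.19% of T cells. Shallow depth or sparse mRNA alone can leave a cell with no UMI.

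Ccl5, whose product attracts T cells, was 589.9, 101 and 540.3 CPM in the members of the SARAWT PBS libraries. It was 661, 2347 and 1500.2 CPM in SARAWT bleomycin, 203 CPM in SARATg PBS and 993 CPM in SARATg bleomycin. Levels in the other classes were at most 17.4 CPM in Cd209a Mgl2 cells and 45.3 CPM in Xcr1 Clec9a cells, below every member value, and the differences were 5.73 ± 1.47 and 5.65 ± 1.51. Ccl17, the other CCR4 ligand, ranged from 82.4 to 746 CPM in members. It was higher than in Xcr1 Clec9a cells by 4.38 ± 1.06, while against Cd209a Mgl2 cells the difference of 2.27 ± 1.33 did not reach 2-fold in every library. Ccl6, Ccl9 and the monocyte chemokine receptor gene Ccr2 were lower in members than in Cd209a Mgl2 cells, Ccl6 by -3.80 ± 0.85. In the chemokine list 2 of 17 measured genes were higher and 3 lower than in Cd209a Mgl2 cells, and 3 of 16 were higher than in Xcr1 Clec9a cells.

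**Figure D1:**
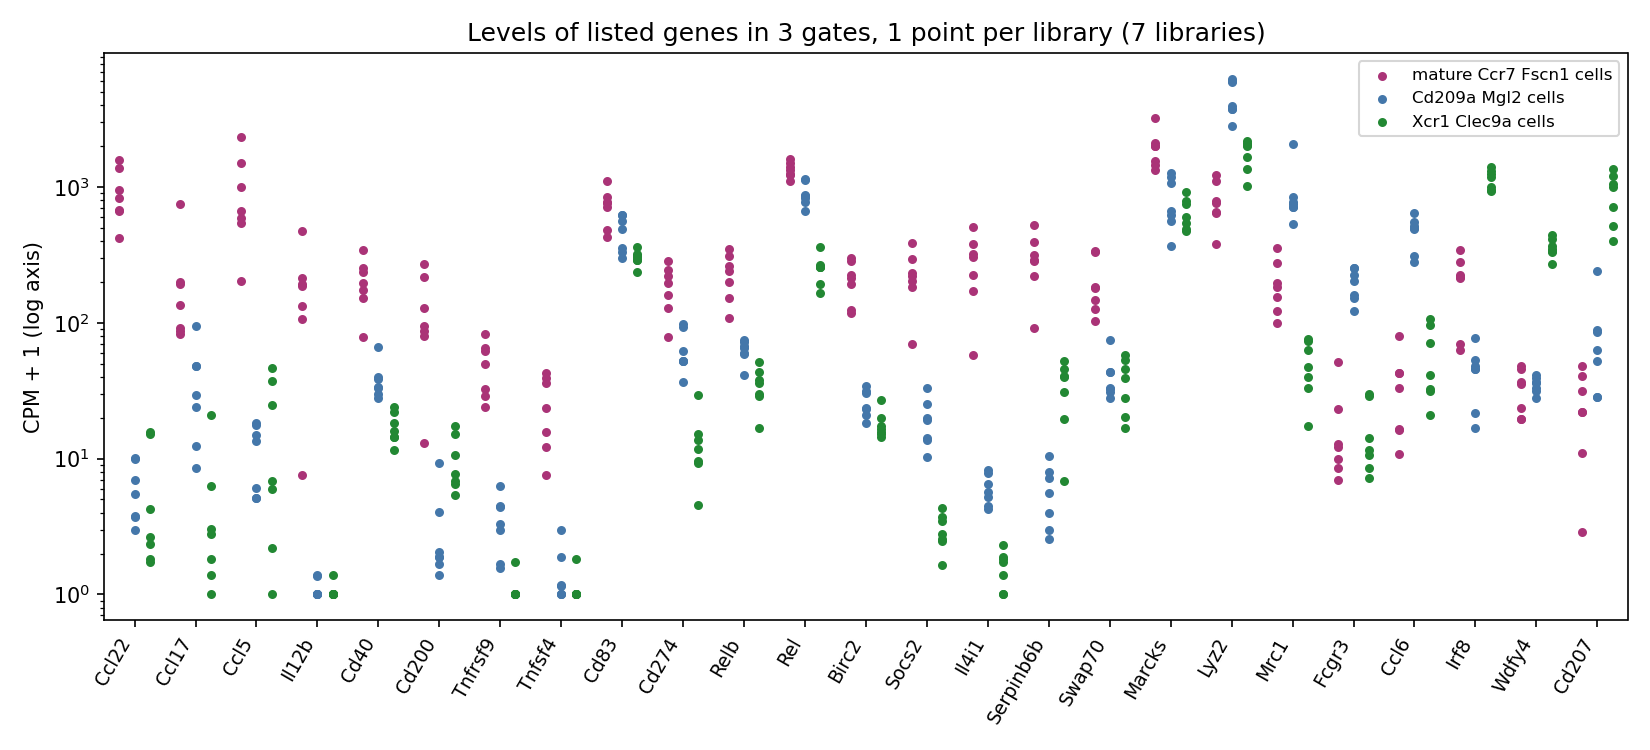
Levels in CPM plus 1 on a log axis for 25 listed genes in mature Ccr7 Fscn1 cells, Cd209a Mgl2 cells and Xcr1 Clec9a cells, with 1 point for each of 7 skin libraries. Points for Ccl22, Ccl5, Il4i1 and Socs2 in mature cells lie above all points of the other classes, whereas Lyz2 and Mrc1 lie below those of Cd209a Mgl2 cells.

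The sequence just upstream of Ccl22 is shown because this gene had the widest difference among the listed chemokines, and a stretch at Tnfrsf9 because it was the only one to hold the motif searched. The 10-base consensus of the NF-κB (kappa B) site was searched on both strands of the RefSeq promoter table (GRCm38.p6), in the 250 bases before each start, for the 6 genes of the NF-κB, co-stimulatory and chemokine lists that were higher than in both classes. Birc2, Tnfrsf9 and Ccl22 matched the table with 5 starts. Tnfrsf9 held 3 overlapping matches in 1 near-palindromic stretch at its second start. They lay 43 and 42 bases before the start on the plus strand and 42 bases before it on the minus strand. The bases that these matches cover together are in capitals in that sequence, which overlaps an annotated exon of Tnfrsf9. The Ccl22 run ends where the annotated first exon begins, on the plus strand of chromosome 8, and it held no match. Among all RefSeq promoters of this length 7.25% (2382 of 32851) held the motif, and a match is not evidence of binding.
Ccl22, upstream, chr8:94745434-94745589 (+): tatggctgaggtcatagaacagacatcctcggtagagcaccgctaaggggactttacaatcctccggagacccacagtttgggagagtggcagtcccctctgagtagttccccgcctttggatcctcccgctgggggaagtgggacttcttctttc
Tnfrsf9, second start, chr4:150927947-150927975 (+): agagcagctGGGGATTTCCCaggaggccc

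Co-stimulatory and T cell ligand genes differed by class. Cd40, the receptor through which T cells license dendritic cells, stood at 195, 320.1 and 342 CPM in the members of SARAWT PBS 1, 2 and 3 and at 253, 237 and 151 CPM in SARAWT bleomycin. SARATg PBS gave 77.1 CPM and SARATg bleomycin 172 CPM. All of these exceeded the Cd209a Mgl2 cells (27.0 to 65.4 CPM) and the Xcr1 Clec9a cells (10.5 to 23.1 CPM), with differences of 2.23 ± 0.61 and 3.21 ± 0.72. Tnfrsf9 (4-1BB), a TNF receptor family member, had differences of 2.74 ± 0.41 and 3.27 ± 0.59, and Tnfsf4 (OX40 ligand), which signals to T cells, had 2.27 ± 0.75 and 2.35 ± 0.75. Tnfsf4 was low in members, at 6.61 to 42.0 CPM in the 7 libraries.

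Inhibitory ligands were part of the same group of genes. Cd200, which restrains myeloid cells through its receptor, ranged from 12.1 to 269.7 CPM and exceeded Cd209a Mgl2 cells by 3.88 ± 1.42. Cd274 (PD-L1) exceeded Xcr1 Clec9a cells by 3.48 ± 0.76 and ranged from 77.1 to 286 CPM. Against Cd209a Mgl2 cells Cd274 differed by 1.47 ± 0.69, short of 2-fold in every library. Vsir, which encodes the checkpoint ligand VISTA, was lower than in Cd209a Mgl2 cells by -2.11 ± 0.50. Cd86, a ligand of CD28, showed no such separation, with 130.0 to 228 CPM in members and differences of -0.02 ± 0.30 and 0.25 ± 0.25. Of 16 measured genes in this list 4 were higher and 1 lower than in Cd209a Mgl2 cells, and 8 were higher than in Xcr1 Clec9a cells. The list's medians were 1.0 and 2.13.

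Cytokine genes were led by Il12b, which encodes the subunit shared by IL-12 and IL-23. Its level in members was 211, 0 and 191 CPM in the SARAWT PBS libraries and 105, 131 and 471 CPM in SARAWT bleomycin. It was 6.61 CPM in SARATg PBS and 186 CPM in SARATg bleomycin. The other classes reached at most 0.393 and 0.394 CPM, and the differences were 4.68 ± 1.67 and 4.70 ± 1.72. Il12b was seen in 17.4% of members (range 4.44 to 28.3%), 10.3% after thinning, and in 0 of 2101 T cells, which allows a share of up to 0.143% with a UMI at their lower depth and sets no limit on the share expressing the gene. Il21r and Il15ra, receptor chains for IL-21 and IL-15, also exceeded both classes, by 3.33 ± 0.69 and 3.39 ± 0.75 for Il21r and by 2.15 ± 0.72 and 1.98 ± 0.47 for Il15ra. Il10 was seen in 1.62% of members and Il23a, the other IL-23 subunit, in 2.59%, so neither was a common transcript at this depth.

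More NF-κB genes were higher against Xcr1 Clec9a cells than against Cd209a Mgl2 cells. The same held over all genes, at 3.6% and 1.39%, and whether the list exceeded this was not tested. Birc2, an inhibitor of apoptosis that acts in the alternative NF-κB pathway, was 117, 202 and 299 CPM in the SARAWT PBS members and 191, 212 and 286 CPM in SARAWT bleomycin. It was 122 CPM in SARATg PBS and 225 CPM in SARATg bleomycin, above the 17.4 to 33.3 CPM of Cd209a Mgl2 cells and the 13.3 to 25.8 CPM of Xcr1 Clec9a cells. Of 16 measured genes of the list 1, Birc2, was higher than in Cd209a Mgl2 cells (2.77 ± 0.79). Against Xcr1 Clec9a cells 6 of 16 were higher, among them Relb (2.56 ± 0.74) and Rel (2.43 ± 0.35), which encode NF-κB subunits, and the list's medians were 0.68 and 1.60.

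Some genes tied to immune regulation and survival were higher in members than in both classes. Il4i1, an amino acid oxidase that restrains T cells, ranged from 57.3 to 508 CPM, against at most 7.22 CPM in Cd209a Mgl2 cells and 1.32 CPM in Xcr1 Clec9a cells, and its differences were 4.61 ± 0.93 and 5.44 ± 1.0. Socs2, a suppressor of cytokine signalling, ranged from 68.3 to 385 CPM and differed by 3.23 ± 0.96 and 4.92 ± 0.75. Both were lowest in SARATg PBS. Aldh1a2, which makes retinoic acid from retinaldehyde, was higher than in Xcr1 Clec9a cells by 2.25 ± 1.02 and was seen in 13.2% of members. Ido1, which degrades tryptophan, was seen in 1.42%. Serpinb6b, a serine protease inhibitor gene, exceeded both classes by 4.87 ± 1.04 and 3.04 ± 1.38. In the survival list 2 and 4 of 12 measured genes were higher than in the respective classes, and in the tolerance list 2 and 3 of 8.

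Genes of motility and presentation moved less. Of 20 measured cytoskeletal genes 1 was higher (Swap70, 2.13 ± 0.80) and 1 lower (Rac2, -2.09 ± 0.60) than in Cd209a Mgl2 cells, and the list's medians were 0.06 and -0.07. Against Xcr1 Clec9a cells 2 of 20, Marcks (1.56 ± 0.23) and Marcksl1 (2.22 ± 0.65), which encode actin-binding membrane proteins, were higher. Swap70 encodes a protein that links membrane signals to actin, and Rac2 is a small GTPase of blood cells. The MHC class II genes were near the other classes, with list medians of -0.27 and -0.28 over 13 measured genes, of which Cst3 was higher than in Cd209a Mgl2 cells (1.61 ± 0.37) and H2-Ob lower than in Xcr1 Clec9a cells (-1.96 ± 0.35). H2-Aa, for example, differed by -0.12 ± 0.22 and -0.28 ± 0.40. Of 15 measured class I presentation genes none passed against Cd209a Mgl2 cells and 2 were higher than in Xcr1 Clec9a cells, with list medians of 0.42 and -0.25. B2m, the light chain of MHC class I, was higher than in Xcr1 Clec9a cells by 1.14 ± 0.13, and so was its regulator Nlrc5 by 1.90 ± 0.71. The proliferation, immediate early and TGF-β lists had no gene higher or lower than in either class. The interferon-stimulated and p53 target lists had 1 of 16 and 1 of 12 higher than in Xcr1 Clec9a cells and none against Cd209a Mgl2 cells.

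Part of the antigen uptake and sensing list was lower in members than in Cd209a Mgl2 cells. Lyz2 (lysozyme), at 768, 623 and 378 CPM in the SARAWT PBS members, was 642, 785 and 649 CPM in SARAWT bleomycin, 1226 CPM in SARATg PBS and 1109 CPM in SARATg bleomycin. Every value lay below the 2835 to 6269 CPM of Cd209a Mgl2 cells, and the difference was -2.57 ± 0.64. The mannose receptor gene Mrc1 differed by -2.16 ± 0.63 and the Fc receptor gene Fcgr3 by -3.38 ± 0.80. Ly75 (DEC-205), also an uptake receptor, went the other way, at 36.4 to 148 CPM in members against at most 5.11 CPM (3.66 ± 0.50). Of 16 measured uptake genes 6 were lower and 1 higher than in Cd209a Mgl2 cells, with a list median of -1.54, and 0 of 17 passed in either direction against Xcr1 Clec9a cells. Of the 10 measured macrophage marker genes 6 were also lower than in Cd209a Mgl2 cells.

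Outside the lists, Tbc1d4, which acts on vesicle traffic, and Cacnb3, a calcium channel subunit gene, were among the genes with the widest differences from Cd209a Mgl2 cells (5.01 ± 0.79 and 5.22 ± 0.84). Tbc1d4 ranged from 385 to 1524 CPM in the members of the 7 libraries. Samsn1, an adaptor gene of haematopoietic cells, was among the widest against Xcr1 Clec9a cells (4.76 ± 0.77). Retnla, a product of alternatively activated myeloid cells, was the furthest below Cd209a Mgl2 cells (-5.53 ± 1.96).

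Genes of the 2 conventional subsets were asked for in the members, since either subset can mature. Most listed cDC1 genes were lower in members than in the cells gated on Xcr1 and Clec9a. Compared with Xcr1 Clec9a cells 8 of 10 measured cDC1 genes were lower, with a median of -2.71, and Xcr1 and Clec9a are not counted since the rule used them. Members held at most 1 UMI of Xcr1 and Clec9a together and that class at least 2. Genes that accompany them thus partly follow the gates, and these ratios do not show the subset from which the members came. Itgae (CD103) was at 0 to 7.04 CPM in members against 142 to 234 CPM in Xcr1 Clec9a cells (-4.77 ± 0.61). Irf8, the transcription factor on which cDC1 depend, lay between the classes within each of the 7 libraries, at 281, 0 and 68.8 CPM in the SARAWT PBS members, 225, 341 and 215 CPM in SARAWT bleomycin, 61.7 CPM in SARATg PBS and 212 CPM in SARATg bleomycin. That was below Xcr1 Clec9a cells by -2.69 ± 0.88 and above Cd209a Mgl2 cells by 2.01 ± 0.42. Transcripts linked to cDC2 were present, with Sirpa higher than in Xcr1 Clec9a cells by 2.94 ± 0.53 and Irf4 by 3.12 ± 0.77. Of 9 measured cDC2 genes 3 were higher than in Xcr1 Clec9a cells, whereas Itgam (CD11b) was lower than in Cd209a Mgl2 cells by -2.69 ± 0.93. Cd209a was seen in 41.3% of members and Mgl2 in 49.5%, and both are left out of the ratio to the class defined by them. Cd207 (langerin), a marker of Langerhans cells that dermal cDC1 share, was seen in 8.66% of members against 62.8% of Xcr1 Clec9a cells.

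The members spanned a wide range of Ccr7. Summed over members, Ccr7 stood at 1681, 3622 and 3645 CPM in SARAWT PBS 1, 2 and 3, at 1706, 2219 and 2664 CPM in SARAWT bleomycin, at 870.4 CPM in SARATg PBS and at 1958 CPM in SARATg bleomycin. A split at 1000 CPM of Ccr7 per cell, set after the values were seen, gave 276 high and 146 low members. It cuts a range and does not define types, and 34 high and 16 low members lay within 1.5-fold of it. The low share was 45.8, 0 and 15.4% in SARAWT PBS, 33.3, 37.9 and 30.9% in SARAWT bleomycin, 71.1% in SARATg PBS and 38.3% in SARATg bleomycin. Low members were not shallower, with a median of 19433.5 UMIs against 16760.5. They fitted the name of a mature dendritic cell less well than high members and held 21 of the 32 predicted doublets and 25 of the 28 members with at least 1000 CPM of stromal marker transcripts.

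**Figure D2:**
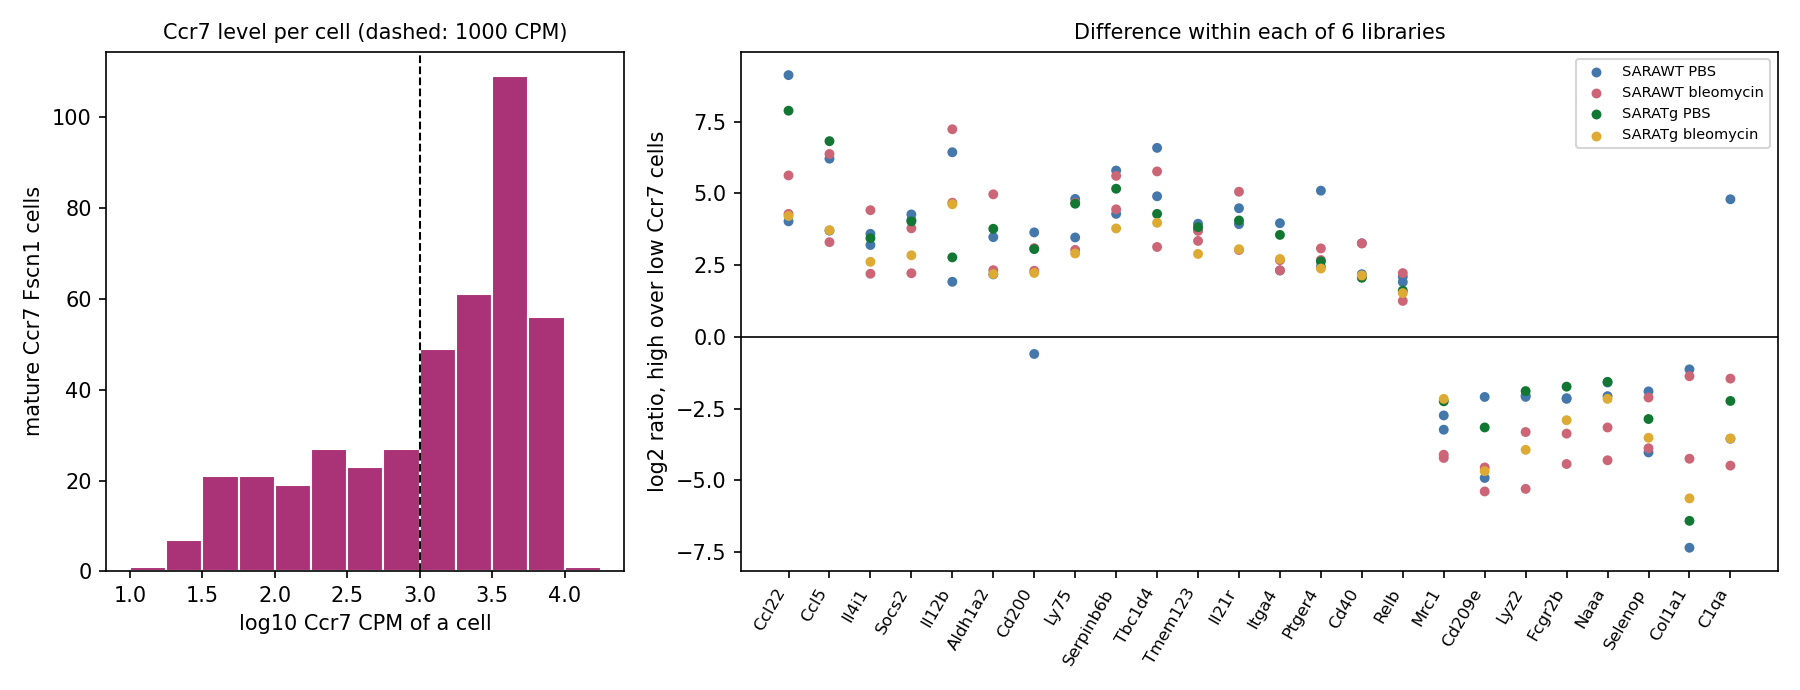
Left, number of mature cells by log10 of Ccr7 CPM per cell in bins of 0.25, with the split at 1000 CPM dashed; right, log2 ratio of high-Ccr7 over low-Ccr7 members for selected genes, with 1 point for each of 6 libraries. The chemokine ligands and Il12b lie above 0 and Mrc1 and Lyz2 below 0, with Ccl22 at a mean of 5.86 and Mrc1 at a mean of -3.12.

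High and low members were compared within the 6 libraries that had at least 10 of each, by the same rule of 2-fold in every library and again with no test. Of 7992 genes 152 (1.9%) were higher and 102 (1.28%) lower in high members, and the median over all genes was -0.31. Ccl22 averaged 1588 CPM in high and 33.9 CPM in low members (5.86 ± 2.16, SD, n = 6 libraries), and Ccl5 averaged 1782 and 75.1 CPM (5.02 ± 1.61). Il12b averaged 329.8 and 11.1 CPM (4.61 ± 2.04). All 3 genes were thus higher in the high members of every one of the 6 libraries. Birc2 (3.04 ± 0.55), Relb (1.77 ± 0.37), Cd40 (2.50 ± 0.59), Il4i1 (3.24 ± 0.78), Socs2 (3.54 ± 0.82), Swap70 (2.76 ± 0.92) and Serpinb6b (4.85 ± 0.80) were also higher in high members. H2-Aa (-0.25), Cd86 (0.59), Cd83 (0.65) and Sirpa (0.11) did not pass, and neither did Cd200 (2.29 ± 1.51), which was lower in high members of SARAWT PBS 1.

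Some uptake receptor genes were higher in low-Ccr7 members. Mrc1 averaged 48.9 CPM in high and 396 CPM in low members (-3.12 ± 0.90), and Cd209e, a lectin gene related to Cd209a, averaged 29.2 and 559 CPM (-4.13 ± 1.25). Lyz2 averaged 210.0 and 1556 CPM (-3.10 ± 1.36). Ly75 went the other way, at 178 and 9.62 CPM (3.92 ± 0.88). The macrophage marker list had 1 of 8 measured genes lower in high members, with a median of -2.01, and its part in these values was not tested. Low members also held more collagen transcripts, with Col1a1 at 493 CPM in high and 3920 CPM in low members (-4.36 ± 2.61). Without predicted doublets 154 genes were higher and 114 lower, of which 142 and 80 were also called with all members. Without members of at least 1000 stromal CPM, 166 were higher and 139 lower in the 5 libraries that remained, 130 and 69 of them also called with all members.

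By list, 4 of 16 chemokine genes, 5 of 17 co-stimulatory genes, 3 of 16 NF-κB genes, 3 of 18 cytokine genes, 3 of 15 class I presentation genes and 3 of 12 survival genes were higher in high members, and none of these lists had a lower gene. Among uptake genes 1 of 17 was higher and 6 were lower, and among cDC1 genes 3 of 8, Irf8 among them (3.38 ± 1.65), were higher and 1 lower. Of 9 measured cDC2 genes none was higher and 2 were lower in high members, with a list median of -1.46. The cDC2 transcripts of the members thus lay in part in low-Ccr7 members. The chemokine list as a whole had a median of -0.40, close to that of all genes. Cst3 (cystatin C), the class II list's gene higher than in Cd209a Mgl2 cells, was also higher in high members (1.82 ± 0.54).

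Shares of all skin cells were compared next, because bleomycin injures skin and draws in leukocytes. Members made up 0.589, 0.640 and 2.24% of kept cells in SARAWT PBS 1, 2 and 3 and 1.25, 1.34 and 1.04% in SARAWT bleomycin. The PBS values lay on both sides of the bleomycin values. The means were 1.16% ± 0.941 and 1.21% ± 0.154 (SD, n = 3 libraries each), a difference of 0.0522 percentage points that did not exceed the spread (exact two-sided permutation test, p = 1, where 0.1 is the smallest p that 3 against 3 allow). SARATg PBS stood at 0.988% (exact Clopper-Pearson 95% interval 0.721 to 1.32%) and SARATg bleomycin at 2.32% (1.93 to 2.77%), intervals that cover counting error only. The sign of the SARAWT difference was not stable. It was 0.138 percentage points without cells of shared barcodes, -0.232 without SARAWT PBS 1 and -0.307 as a share of H2-Ab1 cells. Leaving out both libraries with the high transgene readout against the label left SARAWT PBS 2, with its 5 members, as the only PBS library. The difference was then 0.569, with no test.

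As a share of the cells in the 3 gates (members, Cd209a Mgl2 and Xcr1 Clec9a cells), members made up 2.32, 5.21 and 18.8% in SARAWT PBS and 13.2, 11.9 and 16.2% in SARAWT bleomycin. The groups overlapped, with a difference of 4.99 percentage points between means of 8.77% ± 8.78 and 13.8% ± 2.18 (exact two-sided permutation test, p = 0.4). In SARATg the share was 4.06% (2.98 to 5.40%) with PBS and 23.3% (19.7 to 27.1%) with bleomycin, 1 library each and so with no replicate check. The sort on GFP and the yield of digestion can set these shares, and their part was not tested.

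**Figure D3:**
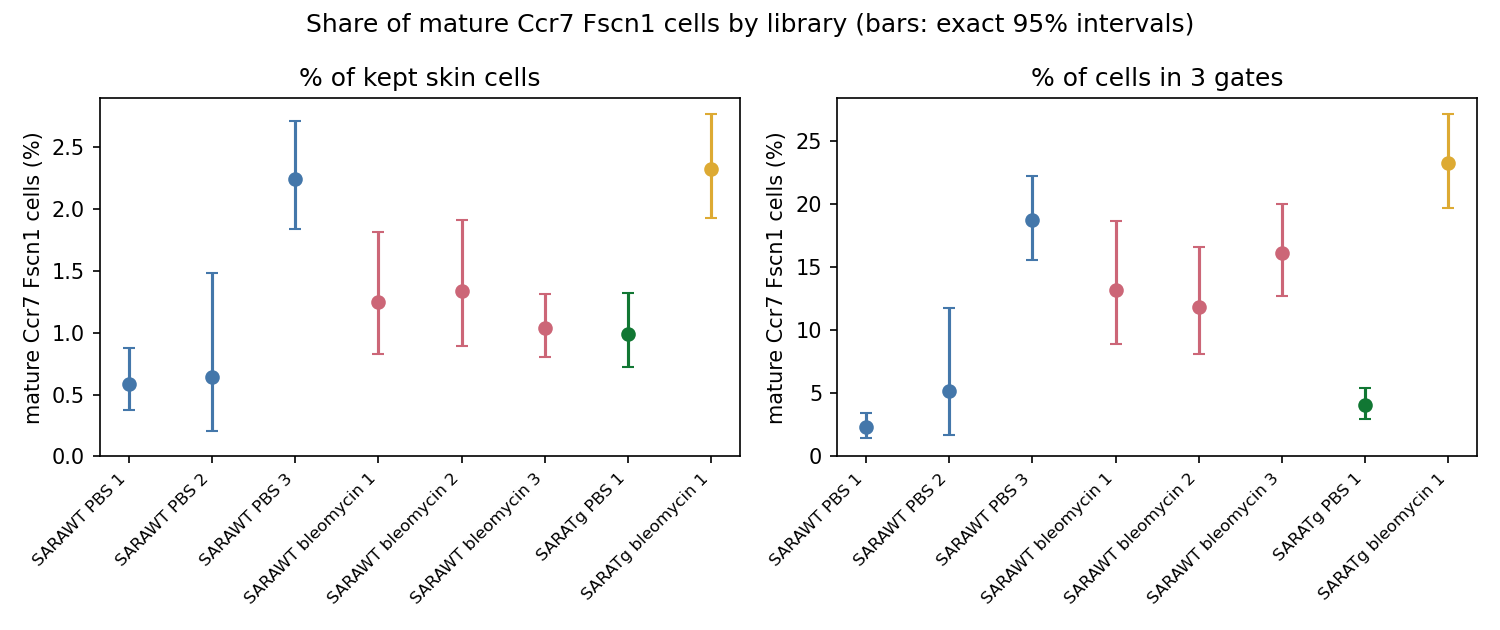
Mature Ccr7 Fscn1 cells as a percentage of kept skin cells (left) and of cells in 3 gates (right), with 1 point per library and exact 95% binomial intervals. SARAWT PBS spans 0.589 to 2.24% on the left and encloses the SARAWT bleomycin values of 1.04 to 1.34%.

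Expression in SARAWT members was then set against treatment, with 3 bleomycin libraries against 2 PBS libraries. None of 5921 genes passed an adjusted p of 0.05 by edgeR's quasi-likelihood test (0%), while 200 lay under 0.05 before adjustment. By DESeq2 6 genes passed (0.101%). No gene of any list passed by edgeR. The DESeq2 calls were Il11ra1, Pf4, Ccl8, Tpm3-rs7 and Cebpd, lower with bleomycin, and H2-DMb2, higher. In the edgeR fit Ccl8 moved from -3.84 ± 0.85 (SE) to -2.11 ± 1.35 without predicted doublets and to -2.56 ± 1.71 without members of at least 1000 stromal CPM, and Il11ra1 in the latter and Pf4 in both did not pass the filter on low counts.

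Cebpd, a C/EBP transcription factor of myeloid cells, stood at 195, 202 and 91.6 CPM in SARAWT PBS members and at 18.7, 30.3 and 22.7 CPM in SARAWT bleomycin. The groups did not overlap, and SARATg followed the same order with 174 CPM with PBS and 29.1 CPM with bleomycin. In all kept skin cells Cebpd was lower with bleomycin too, at 139 to 186 CPM in the PBS libraries of both genotypes and 86.3 to 99.0 CPM in the bleomycin libraries. In members the log2 fold change was -2.44 ± 0.42 (SE, edgeR adjusted p = 0.999). It was -1.42 ± 0.39 without members of at least 1000 stromal CPM, and the stromal list summed to 1481 and 11926 CPM in the SARAWT PBS libraries of the fit against 23.5 to 4778 CPM with bleomycin. H2-DMb2, which encodes a chain of the peptide-loading factor H2-DM, stood at 77.9, 101 and 35.2 CPM in SARAWT PBS and at 238, 188 and 152 CPM in SARAWT bleomycin, with 88.1 CPM in SARATg PBS and 117 CPM in SARATg bleomycin. These groups did not overlap either, at 1.95 ± 0.43 (adjusted p = 0.999).

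In the same fit no listed chemokine gene passed. Ccl22 had a log2 fold change of 0.11 ± 0.45. Ccl5 had 1.53 ± 0.52, and its SARAWT values with bleomycin all lay above those with PBS. In all kept skin cells Ccl5 stood at 60.7, 134 and 225 CPM in SARAWT PBS and at 157, 251 and 286 CPM in SARAWT bleomycin, which overlapped. For Ccl5, Cebpd and H2-DMb2 alike, the share of all genes whose groups separate this way is not given here. Of 209 listed genes tested 14 (6.70%) had an unadjusted p under 0.05, against 3.38% of all genes tested. They included Ccl5, Il21r (1.43 ± 0.38), Tnfrsf9 (1.03 ± 0.31), Tnfsf4 (1.43 ± 0.45) and Il6 (-2.55 ± 0.80), all with an adjusted p of 0.999 by edgeR. Il6, an inflammatory cytokine gene, was 269.9 CPM in SARAWT PBS 1 and 30.9 CPM in SARAWT PBS 3, against 18.7 to 27.5 CPM with bleomycin, so SARAWT PBS 1 stood far above the other libraries of the fit.

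**Figure D4:**
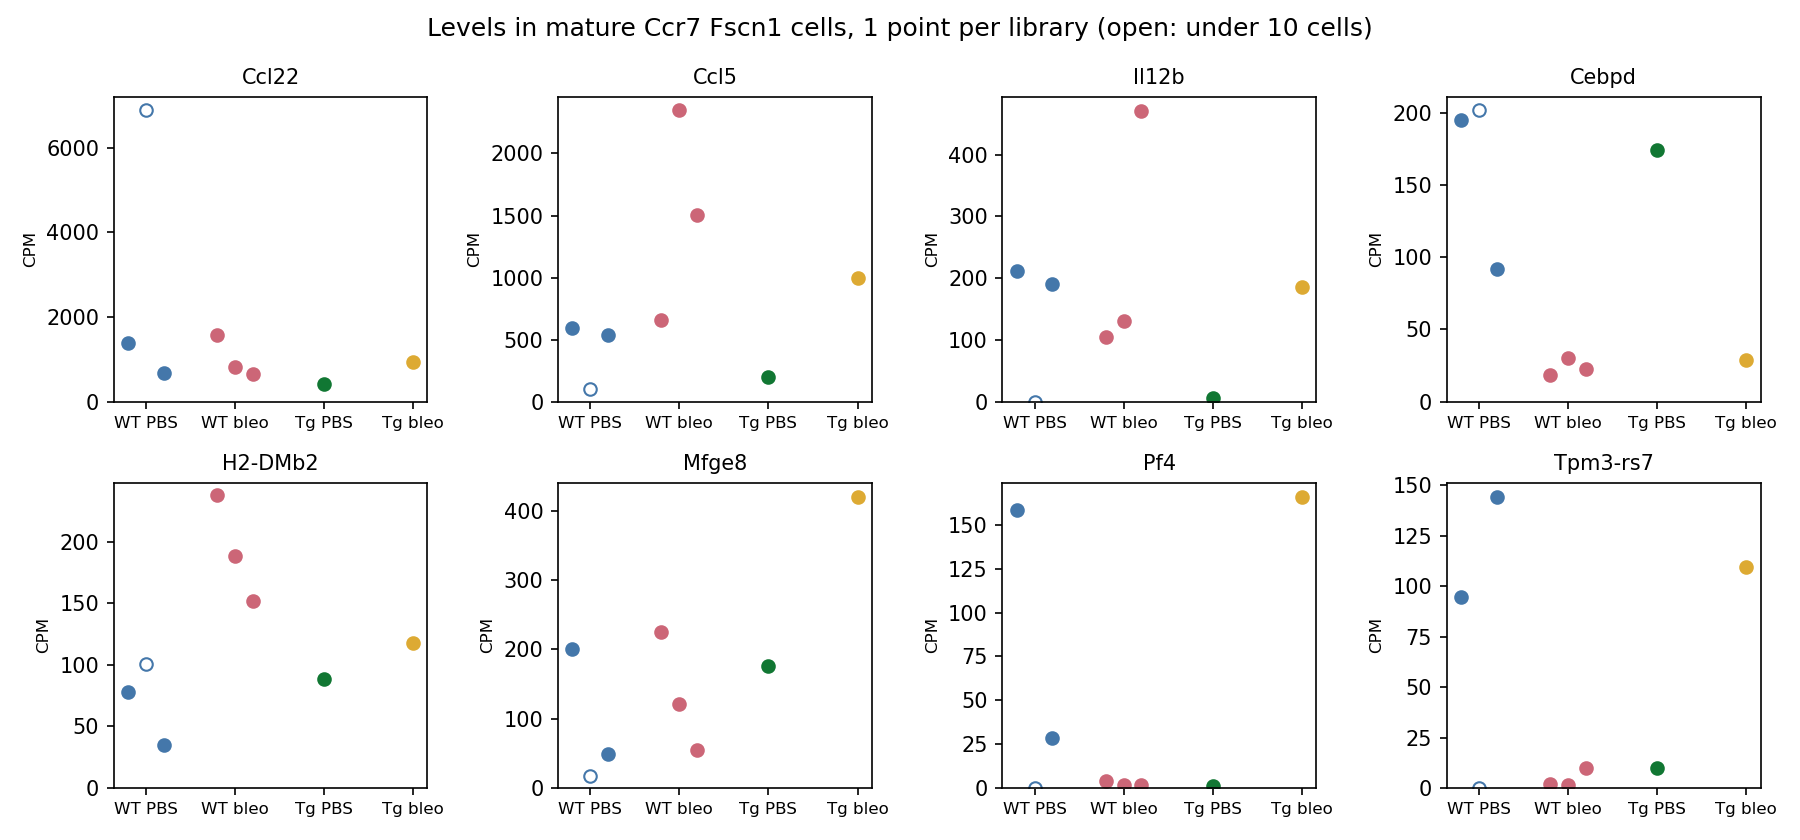
CPM in mature Ccr7 Fscn1 cells for 8 genes, with 1 point per skin library grouped by genotype and treatment and an open symbol for the library with under 10 members. Cebpd is at 91.6 to 202 CPM in SARAWT PBS and at 18.7 to 30.3 CPM in SARAWT bleomycin, while Ccl22 overlaps between the groups.

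Between SARATg and SARAWT members, with treatment and gene list in the model, none of 7827 genes passed (0%), while 597 lay under 0.05 before adjustment. By DESeq2 12 passed (0.153%), including Mfge8, Cd200, Swap70 and Lyz2. Each SARATg treatment had 1 library. The SARATg libraries share a gene list only with SARAWT PBS 3 and SARAWT bleomycin 3. With gene list in the model, the genotype value thus rests on the contrast with those libraries, and SARAWT PBS 3 had the high transgene readout. Predicted doublets were a larger share of members in both SARATg libraries (15.6 and 10.8%) than in any SARAWT library (at most 8.82%). Among all kept cells their share, fixed by library size, was 3.64% in SARATg PBS, 4.12% in SARATg bleomycin and 5.24% in SARAWT bleomycin 3. Without predicted doublets none of 6823 genes passed by edgeR. Mfge8, which encodes a bridge between apoptotic cells and phagocytes, was 200.3, 16.8 and 48.2 CPM in SARAWT PBS members and 225, 121 and 54.3 CPM in SARAWT bleomycin. It was 176 CPM in SARATg PBS and 420.2 CPM in SARATg bleomycin. SARATg PBS lay within the SARAWT range, and the log2 fold change of SARATg over SARAWT was 2.40 ± 0.43 (SE, edgeR adjusted p = 0.530). Without the gene list as a term, which is partly confounded with genotype, it was 1.10 ± 0.60.

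Several genes that set the members apart had negative log2 fold changes in this fit. Its gene list term is partly confounded with genotype, so SARAWT PBS 3 and SARAWT bleomycin 3 set the SARAWT side. For Il4i1 and Socs2 only SARATg PBS, the library with 71.1% low-Ccr7 members, lay below the SARAWT values, at 57.3 and 68.3 CPM. SARATg bleomycin, at 224 and 202 CPM, lay within the SARAWT ranges of 170 to 508 and 183 to 385 CPM. Cd200 had a log2 fold change of -2.54 ± 0.63 and Swap70 of -1.51 ± 0.28. Il4i1 had -1.94 ± 0.62 and Socs2 -1.48 ± 0.47, whereas Lyz2 had 1.15 ± 0.26, and none of these passed by edgeR. Swap70, Il4i1, Socs2 and Lyz2 also differed between high and low members in the directions given above, and the part of the low share in these values was not tested. The keratinocyte gene Krt14 was 505 CPM in SARATg PBS members and 7.27 CPM in SARATg bleomycin, against 0 to 13.5 CPM in SARAWT (5.01 ± 0.69, edgeR adjusted p = 0.218). The keratinocyte list summed to 67.0 to 1004 CPM in SARATg, 19.5 to 176 CPM in SARAWT PBS and 4.05 to 5.62 CPM in SARAWT bleomycin. The stromal list was highest in SARATg PBS too, at 24219 CPM against 23.5 to 11926 CPM in the other libraries, and the part of either list in these values was not tested.

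By edgeR's interaction of genotype and treatment 2 of 8939 genes (0.0224%), Pf4 and Tpm3-rs7, passed. Each SARATg treatment was 1 library, so the effect in SARATg has no replicate check and the p-values do not show that the genotypes differ. Without predicted doublets their log2 values were 15.14 and 7.58, with an edgeR adjusted p of 0.0641 for both, whereas without members of at least 1000 stromal CPM they passed at 0.000485 and 0.00178.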

How the data were processed

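Skin cells of 8 libraries were analysed, and 9 kidney libraries of the same series were not used. The deposited values were whole UMI counts per gene and barcode from 10x Genomics 3′ libraries. The submitters' processing notes name mm10, Cell Ranger 3.0.2 and Seurat 2.3.4, whereas the file headers name Cell Ranger 4.0.0 (SARAWT PBS 1 and 2, SARAWT bleomycin 1 and 2) and 3.1.0 (the other 4). The authors' gene lists held 32286 and 31053 entries, of which 30406 shared by identifier were used. Group and gene list are thus partly confounded. By the labels bleomycin was given 3 times a week for 2 weeks; the study's methods state daily injection.

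Cells were selected by the stated limits in Python 3.11.15 with scipy 1.17.1 and scanpy 1.11.5 (doublet scores; doublets were kept). The members and gene lists were chosen with earlier results of these data known. Counts were summed per library, and libraries with fewer than 10 members left the fits. The main test was edgeR 4.0.16 (TMM, quasi-likelihood, Benjamini-Hochberg adjustment) in R 4.3.3, checked on simulated data, with DESeq2 1.42.0 as an alternative. SARAWT groups were compared alone, and the genotype fit used both treatments with treatment and gene list as terms; a further fit held the genotype by treatment interaction, in which the lone SARATg libraries are assumed to vary like the SARAWT ones. Shares were tested by exact permutation over libraries. Named genes were the called members of each list with the widest difference (up to 4), or else the most abundant; the genes with the widest smallest-library ratio (up to 10 a direction); and those called by a fit. Other named genes were chosen after their values were seen. Shares of cells with a UMI were also computed after thinning each cell to 1000 UMIs. Alternatives changed the gate, doublets, stromal cells, shared barcodes, filters, scaling and the libraries used. Intervals cover counting error only. Promoters came from RefSeq (GRCm38.p6).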

Additional observations from a re-analysis of the deposited data

Results flagged for a closer look

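By edgeR's interaction of genotype and treatment in members 2 of 8939 genes passed, and 292 had an unadjusted p under 0.05. In this fit the single SARATg library of each treatment is assumed to vary like the SARAWT libraries. The libraries labelled SARAWT PBS 1 and 3 had the high transgene readout against the label. These p-values thus do not show that the genotypes differ. Pf4, which encodes a chemokine of platelets and some macrophages, stood at 159, 0 and 28.2 CPM in SARAWT PBS members and at 3.75, 1.68 and 1.62 CPM in SARAWT bleomycin. It stood at 1.10 CPM, which is 1 UMI of 908303, in SARATg PBS and at 166 CPM in SARATg bleomycin. By the labels the order was opposite in SARATg, but it rests on 1 SARATg library per treatment. The SARAWT order rests on SARAWT PBS 1 and 3, so no direction by genotype can be concluded. The interaction was 12.17 on the log2 scale (SE 0.96, adjusted p = 0.0219). In all kept skin cells Pf4 stood at 678, 610.3 and 139.7 CPM in SARAWT PBS and at 393, 362 and 172 CPM in SARAWT bleomycin, which overlapped, and at 78.5 CPM in SARATg PBS and 149.9 CPM in SARATg bleomycin.

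Tpm3-rs7, annotated as a related sequence of the tropomyosin gene Tpm3 and so uncertain where reads are shared with Tpm3, stood at 94.6, 0 and 144 CPM in SARAWT PBS members and at 1.87, 1.68 and 9.72 CPM in SARAWT bleomycin. It stood at 9.92 CPM in SARATg PBS and 109 CPM in SARATg bleomycin, and the interaction was 7.92 (SE 0.77, edgeR adjusted p = 0.0497). The same 3 libraries were high in all kept skin cells, at 92.1, 111 and 107 CPM, against 4.58 to 11.1 CPM in the other 5, so this pattern was not particular to the members. Neither gene passed without predicted doublets or with at least 2 UMIs of Ccr7 and Fscn1, although the log2 values of both kept their sign at 7.58 to 15.14. Both passed without members of at least 1000 stromal CPM (15.93 and 7.63) and by DESeq2 (12.39 and 8.09).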

How the results depend on the processing

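The share difference between SARAWT bleomycin and PBS was small beside its spread, and it kept its sign in 9 of 15 alternatives, not counting the replicate block. It turned negative with at least 2 UMIs of Ccr7 and Fscn1 (-0.0262 percentage points) and as a share of H2-Ab1 cells (-0.307) or of Ptprc cells (-0.254). Leaving out each library in turn gave -0.232 to 0.595, negative without SARAWT PBS 1, SARAWT PBS 2 or SARAWT bleomycin 2. With 0 genes called between SARAWT treatments by edgeR, DESeq2 called 6, a fit without a filter on low counts called 135, and a fit of all 4 groups with the gene list as a term called 3. Leaving out libraries gave 0 to 2, the 2 being Acta1 and Zfyve9 without SARAWT PBS 1, where SARAWT PBS 3, itself against its label, is the only PBS library and is assumed to vary like the bleomycin libraries. A fit without the libraries labelled SARAWT PBS 1 and 3 was not possible, because no PBS library was left.

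Between genotypes, where edgeR called 0, requiring 2 UMIs of Ccr7 and Fscn1 gave 1 gene (Mfge8), and leaving out members with at least 1000 stromal CPM gave 3. Leaving out the libraries labelled SARAWT PBS 1 and 3 removed every SARAWT PBS library from the fit. With gene list as a term, genotype then rested on SARATg bleomycin against SARAWT bleomycin 3, so its calls are not given here. DESeq2 called 12 and a fit with no filter called 233, and leaving out single SARAWT libraries gave 0 to 1 (Saa3 without SARAWT PBS 3, Fabp5 without SARAWT bleomycin 3). SARATg libraries were not left out in turn. The interaction gave 0 genes without predicted doublets, 0 with the gate of 2 UMIs, 7 without high-stromal members and 9 by DESeq2. Without doublets Pf4 stood at 15.14 and Tpm3-rs7 at 7.58 (adjusted p = 0.0641 for both), and with the gate of 2 UMIs at 10.34 and 14.02 (adjusted p = 0.727 and 0.203).

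Genes higher than in Cd209a Mgl2 cells numbered 174 with 1 CPM added, 66 after thinning, 172 with the gate of 2 UMIs, and 107 to 178 with single libraries left out. Thinning left 127 genes higher and 61 lower than in Xcr1 Clec9a cells, where the fuller counts gave 273 and 136. Of the original calls against Cd209a Mgl2 cells, 48 of 107 higher and 37 of 90 lower genes were called after thinning, and against Xcr1 Clec9a cells 106 of 273 and 42 of 136; thinned sums hold fewer UMIs. The alternatives on stromal RNA and on SARAWT PBS 2, the gate of 2 UMIs and the left-out libraries in the class ratios, and all alternatives for the interaction and for high against low Ccr7 were added after seeing the data. Same-numbered SARAWT libraries correlated in their deviations at 0.332 and 0.203, and other pairs at -0.332 to 0.0832. With only 2 PBS libraries their deviations mirror each other, so each value recurs with the opposite sign by construction. These same-numbered pairs also share a gene list, so the numbers were not taken to pair libraries. The replicate block gave 0 called genes of 6985. For the share it leaves the difference of 0.0522 as it is by construction.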

Other observations

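Among the 276 high-Ccr7 members, detection of most of the gene pairs examined went together. Ccl22 was seen in 76.8% (212 cells), Ccl5 in 52.5% (145), Ccl17 in 32.6% (90) and Il12b in 27.2% (75). Ccl17 was seen in 41.0% of Ccl22-positive cells and in 4.69% of the 64 Ccl22-negative cells, whose median depths were 17034 and 16406 UMIs. Il12b was seen in 36.6% of Ccl5-positive and 16.8% of Ccl5-negative cells, with the positive cells shallower at 16151 against 18108 UMIs. Aldh1a2, the retinoic acid-producing enzyme, was seen in 31.1% of Ccl17-positive and 9.14% of Ccl17-negative cells (18925 and 16237 UMIs). Il12b was seen in 34.5% of Cd200-positive and 14.7% of Cd200-negative cells. A few pairs differed little or the other way. Cd200 was seen in 61.1% of Ccl17-positive and 64.0% of Ccl17-negative cells, Il4i1 in 86.7% and 87.1%, and Aldh1a2 in 13.3% of Il12b-positive and 17.4% of Il12b-negative cells. These cells come from 8 libraries that differ in these genes, so the values describe cells pooled over libraries and carry no test.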
